A study of Branchiostoma lanceolatum with 8 samples.

Results

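The effect of Activin on the European amphioxus ectoderm was compared between 2 developmental times, gene by gene. For each of the 13528 genes that stood in both of the authors' deposited tables, of 18998 genes in either table, the log2 fold change between Activin-treated and control explants at 11 hours post fertilization (hpf) was subtracted from that at 19 hpf. The difference, called the difference of effects below, is positive where the treated explants stood higher, relative to control, at 19 than at 11 hpf, and its standard error (SE, given after ±) is the root of the summed squares of the authors' SEs at the 2 times. The 4 groups were control and Activin explants of Branchiostoma lanceolatum at 11 hpf and at 19 hpf, with 2 libraries in each. Explants are pieces of ectoderm cut from the embryo, and the labels name no strain or allele. The treated ones received human recombinant Activin at 50 ng/mL and the controls none. Each library mixed explants from different fertilizations, and its polyA-selected RNA was sequenced. The tables give a mean, a fold change, its SE and p-values per gene but no value per library, so p-values below measure the spread between mixed samples, which may be technical, as it enters the authors' errors. The headers do not name the numerator of the fold change. Its sign was set from 3 known vertebrate targets of the pathway, GSC, CHRD and LEFTY2, whose fold changes were positive at 11 and at 19 hpf, so a positive value is taken as higher in Activin. The lists that hold these genes are not independent evidence of direction.

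Activin is a ligand of the TGF-beta family that, like Nodal, acts through paired serine/threonine kinase receptors and the intracellular effectors SMAD2 and SMAD3. In chordate embryos this pathway induces mesendoderm and the organizer, a dorsal signalling centre that secretes inhibitors of bone morphogenetic proteins (BMPs), and it is held in check by feedback inhibitors such as Lefty. Ectoderm isolated from amphioxus embryos forms epidermis with cilia, the motile hair-like organelles with which the embryo swims, unless it receives inducing signals.

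The difference of effects passed the test (Wald test, Benjamini-Hochberg adjusted p below 0.05 over all 13528 genes) for 2268 genes, 16.8% of those tested. It was higher at 19 hpf for 1362 genes (10.1%) and lower for 906 (6.7%), and 3884 genes had an unadjusted p under 0.05. The smallest difference called was 1.19 on the log2 scale and the median size of a called difference was 2.47. The 2 tables share no samples, and the fold changes at the 2 times had a Pearson r of 0.691 and a Spearman rho of 0.631 across the 13528 genes, which are not independent replicates. Of 5248 genes called at 11 hpf and 6666 called at 19 hpf by the authors' adjusted p, 3584 were called at both, which is 68.3% of the former and 53.8% of the latter. Of those 3584 genes, 3401 moved in the same direction and 183 (5.11%) in opposite directions. Of 4746 genes called at exactly one time, 1495 (31.5%) also had a called difference. The split of directions depended on the scale. When ribosomal protein genes were taken as not changed, every difference fell by 0.70, the median over all genes went from 0.17 to -0.53, and the calls became 662 higher and 2099 lower. Counts of called differences with this ribosomal centring are therefore given beside the main ones below, and counts of response classes with their range over the 4 other scalings (ribosomal centring, centring on well measured genes, total-count and upper-quartile scaling). Where genes are named below as losing a called difference with ribosomal centring, other genes of the same paragraph may have lost theirs too. Genes were sorted into response classes by their calls at the 2 times and the call of the difference. Where a symbol stood on several rows, the values given are those of 1 row with a called or sustained response, and levels are not per length and are not compared between genes.

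**Figure D1:**
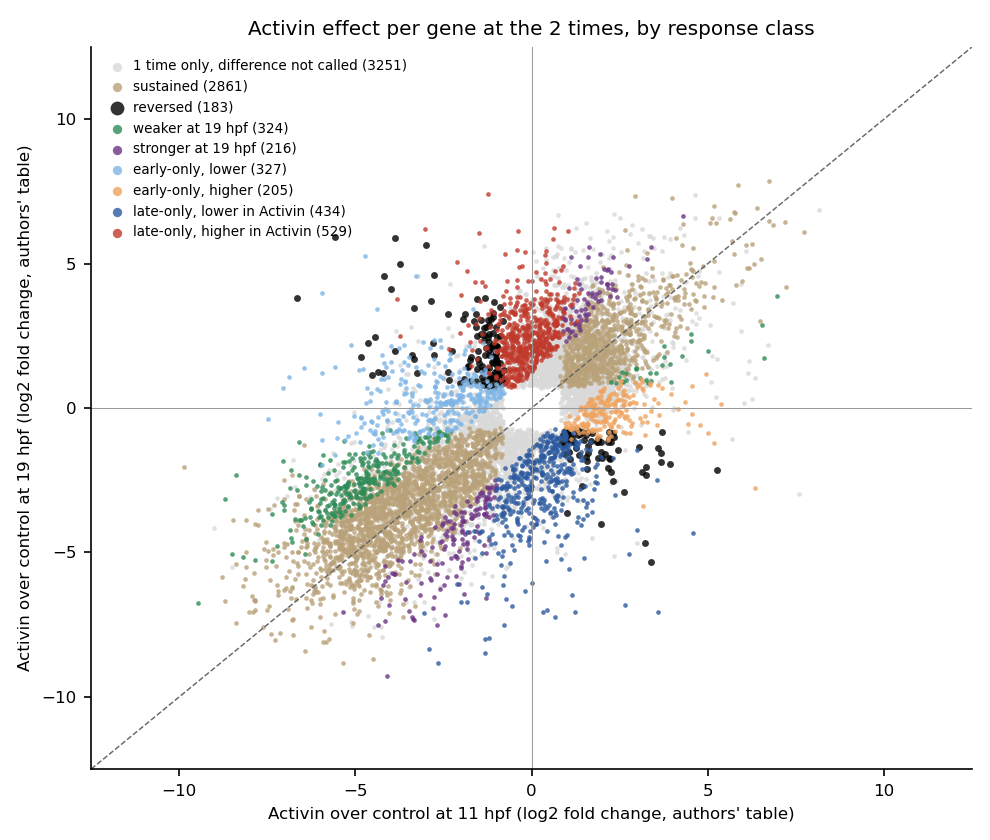
Each point is 1 gene in both tables; the x axis is the authors' log2 fold change at 11 hpf and the y axis that at 19 hpf, and colour marks the response class (genes with no call at either time are not drawn; higher and lower mean higher and lower in Activin). The dashed line marks equal effects. The 2861 sustained genes had no called difference, but not all lie near the line. Their largest absolute difference was 4.43 among those higher and 7.83 among those lower in Activin. The 529 genes higher in Activin at 19 hpf only and the 434 lower at 19 hpf only lie above and below the origin. The 183 reversed genes lie in the upper left and lower right.

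Late-only responses, called at 19 hpf but not at 11 hpf and with a called difference, were the most frequent of the changing classes. They comprised 529 genes higher in Activin (3.91% of all genes) and 434 genes lower in Activin (3.21%). Early-only responses, called at 11 hpf only with a called difference, comprised 205 genes higher (1.52%) and 327 lower (2.42%). Among genes called at both times in 1 direction, the effect was stronger at 19 hpf for 72 genes higher (0.532%) and 144 lower (1.06%), and weaker for 28 higher (0.207%) and 296 lower (2.19%). A further 866 genes higher (6.4%) and 1995 lower (14.7%) in Activin at both times had no called difference and are termed sustained, which does not show that their effects were equal. Reversed responses, called at both times in opposite directions, were lower then higher in 114 genes (0.843%) and higher then lower in 69 (0.51%). The remaining genes were called at 1 time with no called difference (1132 at 11 hpf, 8.37%, and 2119 at 19 hpf, 15.7%), had a called difference only (50, 0.37%) or had no call (5148, 38.1%).

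To see which arm the differences came with, each group's mean was rebuilt from the authors' mean and fold change and put on a scale on which the means of its table sum to 1000000 (scaled counts). A gene's difference of effects equals its log2 change from 11 to 19 hpf in Activin explants minus that in control explants. These changes over time come from tables that may have been normalized separately and carry no test. For the 505 late-only genes higher in Activin with a mean of at least 20 in both tables, the median change over time was -1.89 in control and 0.56 in Activin explants. The control level was at least 2-fold lower at 19 hpf for 362 of them, while the Activin level was at least 2-fold higher for 202. The 386 late-only genes lower in Activin showed the mirror image, with medians of 2.33 in control and -0.25 in Activin explants, and the control level was at least 2-fold higher at 19 hpf for 339. Early-only genes showed the same pattern, with medians of 2.12 in control against -0.23 in Activin for the 201 that were higher, and -2.15 against 0.28 for the 292 that were lower. For reversed genes the medians were -3.37 and -0.08 (lower then higher), and 2.67 and -0.66 (higher then lower). Over all 10405 genes at that mean, the medians were 0.14 in control and 0.23 in Activin explants. The change over time was larger in size in control than in Activin explants for 67.9% to 83.4% of the genes in each of these classes. The share was 63.9% to 82.1% in the stronger and weaker classes, and 62.1% over all genes at that mean. In bulk RNA, fewer cells of a type and less RNA per cell cannot be told apart.

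The cell type markers give a view of what the explants held. The summed level of the 3 epidermal markers in both tables (KRT8, TFAP2D and GATA2) was 31656 scaled counts in control and 568 in Activin explants at 11 hpf, and 69121 and 3027 at 19 hpf. Of the control sums, KRT8 made 28131 at 11 hpf and 67941 at 19 hpf. The control levels of TFAP2D and GATA2 went the other way, from 2055 to 588 and from 1470 to 592. KRT8, a keratin of epithelial cells, was sustained and lower, and its difference of effects had a wide SE (1.29 ± 1.57). The authors' SE of its effect was 1.52 at 19 hpf, against 0.37 at 11 hpf, so the epidermal sums at 19 hpf rest on an imprecise gene. Ciliated-cell markers FOXJ1, TEKT1, TEKT3 and DNAH5 summed to 3235 and 139.7 scaled counts at 11 hpf and 5282 and 393 at 19 hpf, in the same order. The 4 neural plate markers summed to 1481 and 4287 at 11 hpf and 1195 and 3686 at 19 hpf. Neuron markers summed to 714 and 1417 at 11 hpf and 364 and 1384 at 19 hpf, where ELAVL4, an RNA-binding protein of neurons, was sustained and higher (-0.43 ± 0.46) and SYT1, a synaptic vesicle protein, sustained and lower (0.86 ± 0.49). Germ cell markers summed to 231 and 425, then 258 and 459.8. Within the control sums, DDX4 went from 199 to 47.9 and a PIWIL1 row from 28.1 to 204. Notochord markers summed to 70.7 and 72.7 at 11 hpf and 33.0 and 67.8 at 19 hpf, somite markers to 8.46 and 34.8, then 12.3 and 192, and MYOD1, which commits cells to muscle, did not exceed 2.68 scaled counts in any group. Endoderm markers summed to 4.94 and 6.99, then 334 and 91.1, the latter made of GATA4 (311 and 36.3) and FOXA2 (23.4 and 54.8), which lay on opposite sides of control at 19 hpf. TFAP2A, DLX3, SOX3, ELAVL3, NOTO, MYF5, SOX17, NANOS1 and PAX3 were not in both tables. The part of cell composition in the differences below was not tested.

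**Figure D2:**
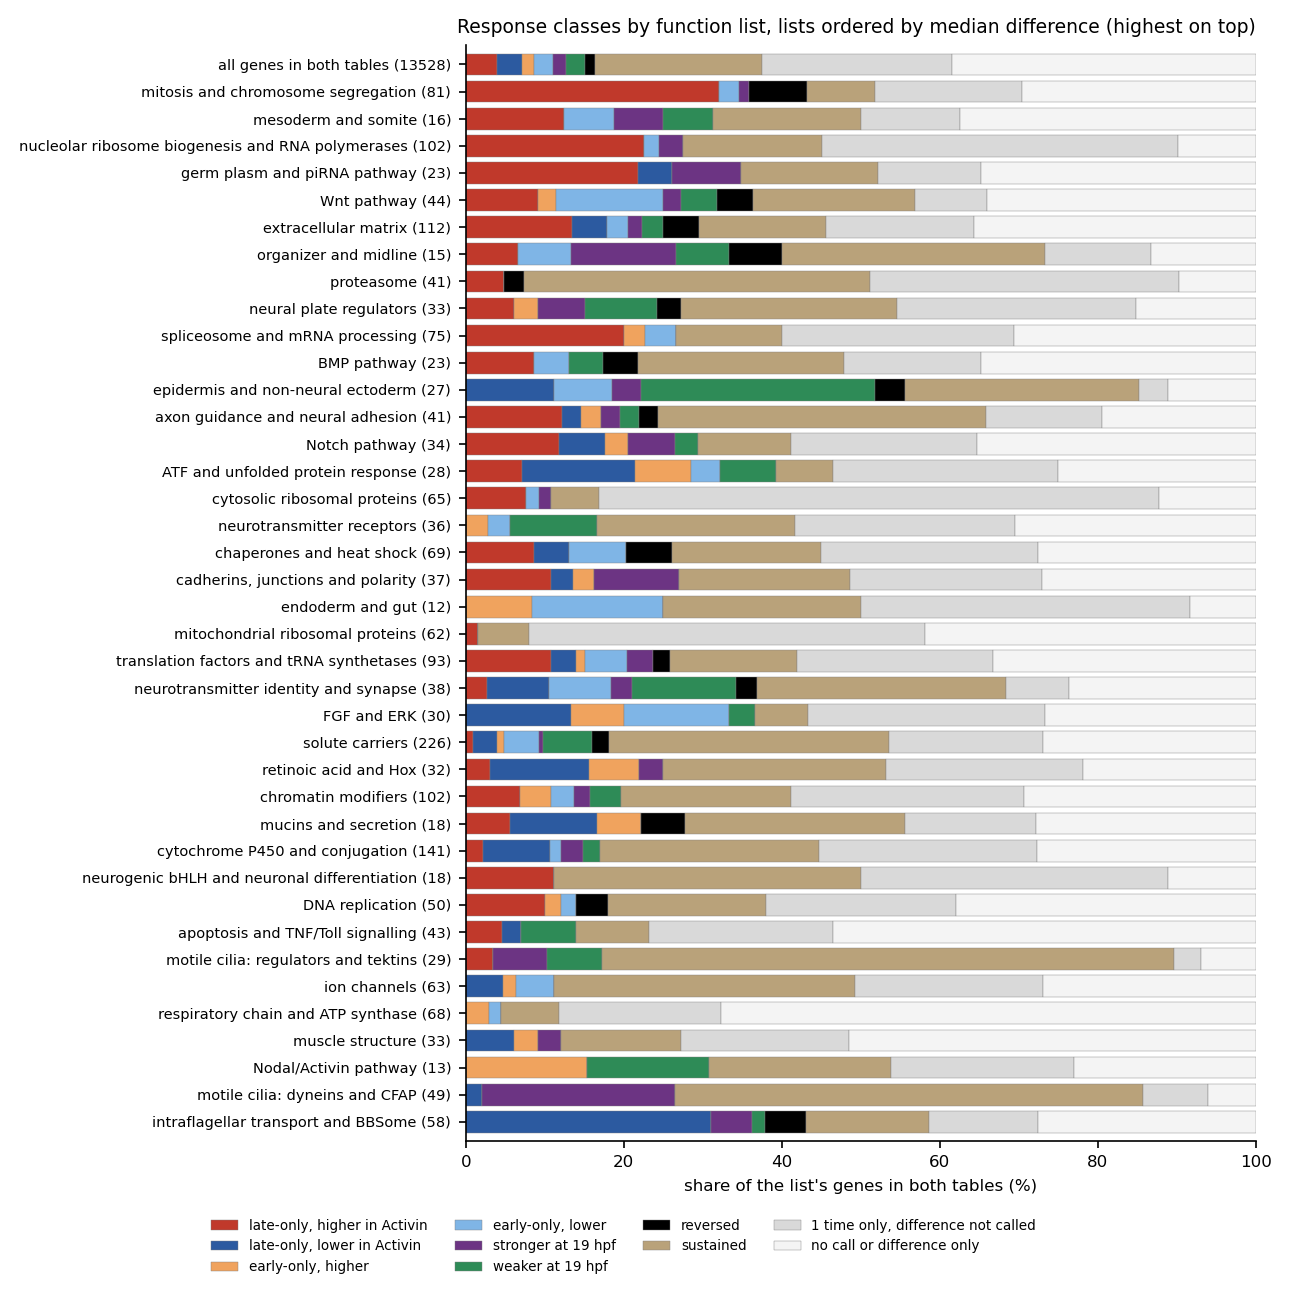
Each bar is 1 of 39 function lists, with the number of its genes in both tables in brackets, and shows the share (%) of those genes in each response class; the top bar is all 13528 genes. Late-only genes higher in Activin fill 26 of 81 genes of the mitosis list, late-only genes lower in Activin fill 18 of 58 of the intraflagellar transport list, and weaker genes fill 8 of 27 of the epidermis list.

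Genes of the Nodal/Activin pathway itself included several with a smaller response at 19 hpf. Of the 13 genes on this list, 4 had a lower and 0 a higher effect at 19 hpf (7 and 0 with ribosomal centring), and the median difference was -0.79 (-1.49 with ribosomal centring). CFC1, which encodes a co-receptor of Nodal, had an effect of 3.55 ± 0.52 at 11 hpf and -0.58 ± 0.41 at 19 hpf in the authors' deposited tables. Its level was 5.22 scaled counts in control and 61.1 in Activin explants at 11 hpf, and 118 and 78.9 at 19 hpf. The control mean stood below the treated one at 11 hpf and above it at 19 hpf, where the effect was not called. The difference was -4.12 ± 0.66 (Wald test, adjusted p = 4.7e-08). SMAD6, an intracellular inhibitor mainly of BMP signalling, was likewise higher at 11 hpf only, with a difference of -2.27 ± 0.73. SKI, a repressor of SMAD-dependent transcription, stayed higher at both times but less so at 19 hpf: it went from an effect of 5.02 ± 0.38 to one of 1.98 ± 0.35 in the authors' deposited tables, with a difference of -3.04 ± 0.52. LEFTY2, the feedback inhibitor of Nodal, was sustained: its level was 5.07 scaled counts in control and 425 in Activin explants at 11 hpf, and 2.10 and 254 at 19 hpf, and the groups stood apart at both times. Its difference was 0.53 ± 0.68, which did not pass the test.

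BMP genes had higher effects at 19 hpf where they differed, except for 1 with ribosomal centring, and organizer genes differed in both directions. On the BMP list, 5 of 23 genes had a higher and 0 a lower effect at 19 hpf (2 and 1 with ribosomal centring), with a median difference of 0.81 (0.10 with ribosomal centring). BAMBI, a decoy receptor of TGF-beta family ligands, was lower in Activin at both times but less so at 19 hpf, at 47.0 scaled counts in control and 3.96 in Activin explants at 11 hpf, and 105 and 33.6 at 19 hpf. BMPR1B, a type I receptor of BMPs, was higher in Activin at 19 hpf only (difference 1.33 ± 0.47), as was TLL2, of the tolloid proteases that cleave Chordin (4.4 ± 1.15). SMOC2, an extracellular protein of the SPARC family, reversed from -4.20 ± 1.31 to 4.56 ± 0.82 in the authors' deposited tables, at levels of at most 13.8 scaled counts and, in Activin at 11 hpf, under 3 normalized counts. CHRD, the secreted BMP inhibitor Chordin, was sustained at 14.9 scaled counts in control and 359 in Activin explants at 11 hpf, and 8.10 and 218 at 19 hpf, with a difference of 0.16 ± 0.57. SMOC1, a relative of SMOC2, was also sustained, with a difference of -1.33 ± 0.58 that passed the test with ribosomal centring. Of the 15 organizer and midline genes, 5 had a higher and 1 a lower effect at 19 hpf (3 and 1 with ribosomal centring). OTX2, a homeobox gene of the anterior head, was higher in Activin explants at both times and more so at 19 hpf, at 31.9 scaled counts in control and 335 in Activin explants at 11 hpf, and 24.6 and 1168 at 19 hpf (Wald test, adjusted p = 0.0016). LHX1, a LIM homeobox gene of the organizer, was higher at 19 hpf only (difference 2.62 ± 0.57), and DKK2, a secreted modulator of Wnt signalling, reversed from lower to higher (3.37 ± 0.64). PRDM1, a zinc finger repressor, moved most the other way: its control level went from 13 to 695 scaled counts and its Activin level from 4.60 to 34.4, a difference of -2.84 ± 0.69. GSC, the organizer homeobox gene Goosecoid, was sustained with 5.89 scaled counts in control and 40.1 in Activin explants at 11 hpf, and 4.89 and 72.0 at 19 hpf. BAMBI and BMPR1B lost their called differences with ribosomal centring.

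Mesoderm and endoderm regulators had called differences in both directions. On the mesoderm and somite list, 4 of 16 genes had a higher and 1 a lower effect at 19 hpf (2 and 1 with ribosomal centring), 31.2% in all against 16.8% of all genes, and the median difference was 1.81 (1.11 with ribosomal centring). FOXD3, a forkhead factor of amphioxus somites and notochord, was stronger at 19 hpf, at 4.82 scaled counts in control and 46.6 in Activin explants at 11 hpf, and 5.46 and 196 at 19 hpf. The symbol PAX7, a paired-box gene of neural and muscle precursors, stood on a pair of rows that were both higher in Activin at 19 hpf only, with differences of 2.85 ± 0.95 and 5.11 ± 1.31. RIPPLY2, a repressor that sets somite boundaries, was weaker at 19 hpf, with 0.959 scaled counts in control and 18.4 in Activin explants at 11 hpf, and 5.40 and 19.0 at 19 hpf, and its call was lost when the tables were centred on well measured genes or scaled by upper quartile. EVX2, a posterior homeobox gene, was lower at 11 hpf only (difference 4.0 ± 1.02). SNAI2, a repressor of epithelial genes in mesoderm and neural crest, was sustained at 4.39 ± 0.54 and 4.64 ± 0.34 in the authors' deposited tables. The rows for T, the Brachyury gene of notochord and posterior mesoderm, had differences of 0.97 ± 0.60 and 1.22 ± 0.97, neither of which passed the test. Endoderm genes had 2 higher and 1 lower of 12 (1 and 2 with ribosomal centring), 25.0% in all. They included HHEX, a homeobox gene of the anterior gut, which was lower at 11 hpf only (difference 3.64 ± 1.19), and a pair of rows for CDX4, a posterior homeobox gene, which went opposite ways: 3.01 ± 0.64 and -1.56 ± 0.57. FOXD3, HHEX and a PAX7 row lost their called differences with ribosomal centring.

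Neural plate regulators included genes of the forebrain with large differences. Of 33 such genes, 7 had a higher and 2 a lower effect at 19 hpf (4 and 4 with ribosomal centring), 8 were sustained and higher in Activin (5 to 13 with other scalings), and the median difference was 0.84 (0.14 with ribosomal centring). RAX, a homeobox gene of the retina and forebrain, had effects of -6.60 ± 0.39 at 11 hpf and -1.18 ± 0.30 at 19 hpf in the authors' deposited tables. Its level was 282 scaled counts in control and 2.90 in Activin explants at 11 hpf, and 1203 and 529 at 19 hpf, with the groups nearer to each other at 19 hpf, and the difference was 5.42 ± 0.50 (Wald test, adjusted p = 2.7e-24). FEZF2, a zinc finger gene of the forebrain, was low in both groups at 11 hpf and stood apart at 19 hpf, with 1.2 scaled counts in control and 1.88 in Activin explants at 11 hpf, and 6.08 and 459 at 19 hpf and a difference of 5.59 ± 1.37. IRX6, an Iroquois homeobox gene, reversed on 1 row, with 319 scaled counts in control and 119 in Activin explants at 11 hpf, and 12.1 and 100.3 at 19 hpf (Wald test, adjusted p = 1.9e-15), and was late-only on another (difference 3.06 ± 1.12). SIX3 and PAX2, regulators of the forebrain and of the midbrain and otic region, were lower in Activin at both times and less so at 19 hpf, with differences of 1.36 ± 0.48 and 1.47 ± 0.47. In contrast FOXB1, a forkhead gene of the neural tube, was lower in Activin at both times and more so at 19 hpf, at 1751 scaled counts in control and 463 in Activin explants at 11 hpf, and 2422 and 159.8 at 19 hpf. SOX14, a SoxB2 factor, was higher at 11 hpf only (difference -2.53 ± 0.56). ZIC1, a zinc finger gene of the neural plate border, was sustained at 149 scaled counts in control and 1331 in Activin explants at 11 hpf, and 55.3 and 885 at 19 hpf. Rows for SOX2, which maintains neural progenitors, had differences of -2.06 ± 0.87, -0.65 ± 0.46 and 0.09 ± 0.52, none of which passed the test, although the first and the second did so with ribosomal centring. SIX3, PAX2 and an IRX6 row lost their called differences with ribosomal centring.

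Neurogenic genes had 11.1% called differences against 16.8% over all genes, and Notch pathway genes had them in both directions. Of 18 neurogenic and neuronal differentiation genes, 2 had a higher and 0 a lower effect at 19 hpf (1 and 1 with ribosomal centring), 6 were sustained and higher (5 to 9 with other scalings), and the median difference was -0.05 (-0.75 with ribosomal centring, 0.02 when centred on well measured genes and 0.06 with upper-quartile scaling). NEUROG3, a proneural bHLH factor, had effects of 6.75 ± 0.50 at 11 hpf and 6.46 ± 0.36 at 19 hpf in the authors' deposited tables, and a difference of -0.29 ± 0.62. LHX3, a LIM homeobox gene of motor neurons, was higher at 19 hpf only, at 7.76 scaled counts in control and 11.2 in Activin explants at 11 hpf, and 1.92 and 42.2 at 19 hpf, as was POU3F4, a POU factor of neural progenitors (difference 1.58 ± 0.48). On the Notch list, 7 of 34 genes had a higher and 3 a lower effect at 19 hpf (2 and 6 with ribosomal centring). The ligands DLL1 and JAG1 were higher at 19 hpf only (differences 1.78 ± 0.56 and 1.90 ± 0.69), and so was a receptor row for NOTCH1 (2.40 ± 0.59). A pair of rows for HES1, the repressor that Notch activates, went opposite ways. One was higher in Activin at 19 hpf only (2.80 ± 0.56) and the other was lower at 19 hpf only (-1.89 ± 0.52). MIB2, a ubiquitin ligase for Notch ligands, was higher at 11 hpf only (-2.46 ± 0.65). Another row for NOTCH1 was sustained, lower in Activin at -5.91 ± 0.37 and -5.0 ± 0.42 in the authors' deposited tables. POU3F4, DLL1 and JAG1 lost their called differences with ribosomal centring.

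Of 38 transmitter and synapse genes, 21 were called lower and 2 higher in Activin at 11 hpf, and 20 lower and 5 higher at 19 hpf. Over all genes, 25.1% were called lower and 13.7% higher at 11 hpf, and 27.9% lower and 21.3% higher at 19 hpf. Of the 38 genes, 11 had a higher and 3 a lower effect at 19 hpf (9 and 5 with ribosomal centring), and the median difference was 0.49 (-0.21 with ribosomal centring). The symbol SLC6A5, the neuronal glycine transporter, stood on 8 rows, of which 6 had a higher effect at 19 hpf, in 4 different classes. One row was weaker, with 988 scaled counts in control and 26.3 in Activin explants at 11 hpf, and 1094 and 163 at 19 hpf, one was lower at 11 hpf only (337 scaled counts in control and 36.6 in Activin explants at 11 hpf, and 304 and 171 at 19 hpf), and one reversed (103 scaled counts in control and 38.6 in Activin explants at 11 hpf, and 183 and 383 at 19 hpf). HDC, which makes histamine, and GAD2, which makes GABA, were lower in Activin at both times and less so at 19 hpf, with differences of 2.38 ± 0.57 and 1.89 ± 0.54. A row each for the vesicular glutamate transporters SLC17A7 and SLC17A6 was lower in Activin at 19 hpf only, where the control level had reached 24.2 and 22.3 scaled counts. DLG1, a scaffold of junctions and synapses, was likewise late-only, with 86.4 scaled counts in control and 63.7 in Activin explants at 11 hpf, and 1020.1 and 127 at 19 hpf (Wald test, adjusted p = 1.1e-05). SLC18A2, the vesicular amine transporter, was sustained at -5.10 ± 0.42 and -4.51 ± 0.42 in the authors' deposited tables. Of 36 receptor-list genes, 5 had a higher effect at 19 hpf and 1 a lower one (5 and 1 with ribosomal centring). That was 16.7% in all, against 16.8% of all genes, and the lower one was ADRBK2, a receptor kinase. Rows for HTR1B (serotonin receptor), CHRNB3 (nicotinic receptor subunit) and ADRA1D (adrenergic receptor), 4 in all, were lower in Activin at both times and less so at 19 hpf, with differences of 3.47 to 4.28, and 9 rows of the list were sustained and lower (6 to 9 with other scalings). Ion channel genes had 3 higher and 4 lower of 63 (0 and 13 with ribosomal centring), 11.1% in all. Among them were TRPM6, a magnesium channel, and KCNAB2, a potassium channel subunit, both lower at 19 hpf only. TRPM6 had 11.1 scaled counts in control and 6.8 in Activin explants at 11 hpf, and 168 and 15.7 at 19 hpf. GAD2 lost its called difference with ribosomal centring.

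Axon guidance genes differed in both directions. Of 41 axon guidance and neural adhesion genes, 8 had a higher and 2 a lower effect at 19 hpf (5 and 4 with ribosomal centring), with a median difference of 0.77 (0.07 with ribosomal centring). NCAM2, a neural cell adhesion molecule, had 2563 scaled counts in control and 2015 in Activin explants at 11 hpf, and 57 and 1692 at 19 hpf. The groups were close at 11 hpf; at 19 hpf the control level was far below the Activin level. Its difference was 5.24 ± 0.45 (Wald test, adjusted p = 9.4e-27), and a second NCAM2 row had one of 3.99 ± 0.58. PLXNA4, a semaphorin co-receptor, ROBO1, the receptor for Slit, and NRCAM, an L1-family adhesion molecule, were also higher in Activin at 19 hpf only, with differences of 3.40 ± 0.61, 1.85 ± 0.47 and 2.95 ± 1.06. SEMA6A, a transmembrane semaphorin, was higher at 11 hpf only, with 3.49 scaled counts in control and 82.0 in Activin explants at 11 hpf, and 104 and 176 at 19 hpf (Wald test, adjusted p = 6.2e-08). CNTN5, a contactin, was lower at both times and less so at 19 hpf (difference 3.52 ± 0.58), and CNTN3 was sustained. ROBO1 and NRCAM lost their called differences with ribosomal centring.

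The epidermal list had called differences in both directions. Of 27 genes of epidermis and non-neural ectoderm, 10 had a higher and 5 a lower effect at 19 hpf (5 and 6 with ribosomal centring), so that 55.6% had a called difference. Their median effect was -2.65 at 11 hpf and -2.74 at 19 hpf in the authors' deposited tables. TFAP2D, an AP-2 factor, had 2055 scaled counts in control and 33.1 in Activin explants at 11 hpf, and 588 and 87.9 at 19 hpf, so that the control level was lower and the Activin level higher at 19 than at 11 hpf (difference 3.22 ± 0.52; Wald test, adjusted p = 6.1e-08). GATA2, KLF2 and OVOL1, zinc finger regulators of ectoderm or epithelium, were weaker too, with differences of 1.98 ± 0.51, 1.58 ± 0.48 and 1.71 ± 0.52. The 3 rows for GRHL1, a grainyhead factor of epidermal barrier genes, were all lower at 11 hpf and had differences of 1.98 to 2.29, with control levels of 2407, 794 and 332 scaled counts at 11 hpf and 189, 58.6 and 15.7 at 19 hpf. TBX2, a T-box repressor, was lower at 11 hpf only (difference 2.57 ± 0.61). Of 6 rows for TGM1, an enzyme that cross-links proteins of the epidermal surface, 4 had a lower and 1 a higher effect at 19 hpf. One reversed, from 2.63 ± 0.51 to -2.89 ± 0.56 in the authors' deposited tables, with 4.97 scaled counts in control and 30.7 in Activin explants at 11 hpf, and 63.9 and 8.61 at 19 hpf (Wald test, adjusted p = 6.8e-11). KLF5, a zinc finger gene of epithelia, was lower at 19 hpf only (difference -2.60 ± 0.89). Among keratins, KRT36 was weaker (14667 scaled counts in control and 132 in Activin explants at 11 hpf, and 38722 and 1552 at 19 hpf) and KRT84 sustained. Mucins and secretion genes had 1 higher and 4 lower of 18 (1 and 6 with ribosomal centring). MUC2, a gel-forming mucin, was higher in Activin at 19 hpf only, with 3.44 scaled counts in control and 7.11 in Activin explants at 11 hpf, and 25.1 and 1774 at 19 hpf, and GALNT2, an enzyme that starts mucin-type glycans, reversed from higher to lower (difference -2.06 ± 0.48). With ribosomal centring the higher effects of the epidermal list went from 10 to 5. GATA2, KLF2 and OVOL1 were among the genes that lost their called differences, but not the only ones.

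Of 49 dynein and CFAP genes 45, and of 29 cilium regulators and tektins 26, were called lower in Activin at 19 hpf, against 27.9% of all genes. Called differences went in both directions. FOXJ1, the forkhead factor that switches on motile cilium genes, was lower at both times and less so at 19 hpf, with 1299 scaled counts in control and 46.9 in Activin explants at 11 hpf, and 729 and 196 at 19 hpf and a difference of 2.90 ± 0.53 (Wald test, adjusted p = 3.0e-06). RFX3, a second ciliary regulator, was weaker as well (difference 1.5 ± 0.49), and RFX4, a relative, was higher in Activin at 19 hpf only, at 13.8 scaled counts or less. Among the axonemal dyneins, the motors that bend cilia, called differences were negative. Of 49 dynein and CFAP genes, 13 had a lower and 0 a higher effect at 19 hpf (27 and 0 with ribosomal centring), 12 of them in the stronger class (7 to 22 with other scalings), and 28 were sustained and lower (18 to 31). Of 20 rows for dynein heavy chains, 9 had a lower effect at 19 hpf. DNAH8 had 57.9 scaled counts in control and 22.8 in Activin explants at 11 hpf, and 274 and 10.2 at 19 hpf and a difference of -3.41 ± 0.58 (Wald test, adjusted p = 2.9e-07). DNAH2, at 47.4 scaled counts in control and 10.8 in Activin explants at 11 hpf, and 621 and 17.9 at 19 hpf, and DNAH1, at 115 scaled counts in control and 30.1 in Activin explants at 11 hpf, and 467 and 17.9 at 19 hpf, behaved alike, with differences of -2.98 ± 0.61 and -2.76 ± 0.54. SPAG17 and SPAG6, proteins of the central pair of the axoneme, were stronger at 19 hpf too (-2.33 ± 0.51 and -1.57 ± 0.50). Tektins, filaments of the axonemal doublets, had no called difference on 3 rows; TEKT3, for example, had effects of -5.32 ± 0.35 at 11 hpf and -4.86 ± 0.35 at 19 hpf in the authors' deposited tables and a difference of 0.45 ± 0.49. On the list of cilium regulators and tektins, 3 had a higher and 2 a lower effect of 29, 17.2% in all against 16.8% of all genes. These counts became 2 and 13 with ribosomal centring, and 21 genes of the list were sustained and lower (12 to 21 with other scalings). With that centring 12 of its genes were in the stronger class. The difference between the cilium lists was not tested. RFX3 lost its called difference with ribosomal centring.

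Intraflagellar transport (IFT), the train system that builds cilia, responded late. Of 58 genes for IFT, the BBSome cargo adaptor and related ciliary proteins, 25 had a lower and 1 a higher effect at 19 hpf (38 and 0 with ribosomal centring), and 18 were late-only and lower in Activin. The median effect was -0.33 at 11 hpf and -2.06 at 19 hpf in the authors' deposited tables. All 19 rows for the IFT particle had a negative difference, 13 of them called, with a median of -1.91. IFT172 had 67.2 scaled counts in control and 40.5 in Activin explants at 11 hpf, and 256 and 15 at 19 hpf: the control level was higher and the Activin level lower at 19 than at 11 hpf, and the difference was -3.36 ± 0.51 (Wald test, adjusted p = 7.6e-09). IFT80, IFT74 and WDR35 were close to control at 11 hpf and lower at 19 hpf, with differences of -3.20 ± 0.63, -2.62 ± 0.53 and -2.69 ± 0.55. DYNC2H1, the motor of return transport, was late-only (-1.88 ± 0.63), and KIF3B, of the outward motor, was stronger (-2.44 ± 0.50). The 8 BBSome rows also had negative differences throughout, 6 of them called. Rows for BBS7, TTC8 and BBS2 reversed from higher to lower, BBS7 with 4.52 scaled counts in control and 42.9 in Activin explants at 11 hpf, and 29.0 and 7.01 at 19 hpf (Wald test, adjusted p = 9.8e-12). The exception on the list was ARL6, the GTPase that recruits the BBSome to membranes, which was weaker at 19 hpf (difference 1.76 ± 0.51). Levels over time differed in direction between the arms: the median log2 change from 11 to 19 hpf was 0.63 in control and -0.70 in Activin explants for the IFT list, and 0.94 and -0.26 for dyneins. ARL6 lost its called difference with ribosomal centring.

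**Figure D3:**
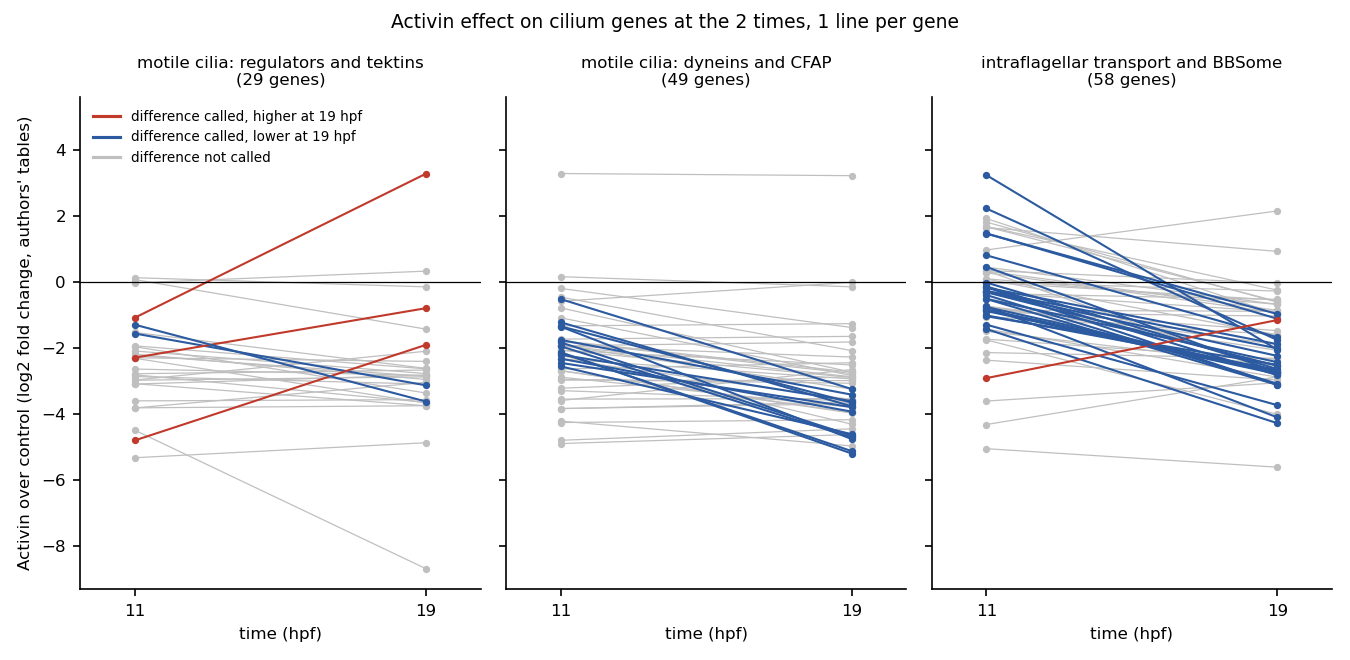
Each line is 1 gene of the 3 cilium lists, with time (hpf) on the x axis and the authors' log2 fold change of Activin over control on the y axis; blue lines have a called lower and red lines a called higher effect at 19 hpf. FOXJ1 goes from -4.79 to -1.90 in the left panel. In the middle panel 13 of 49 genes have a called lower effect and 28 are sustained and lower, while 13 differences are positive. IFT genes go from near 0 (median -0.33) to a median of -2.06 in the right panel.

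Many cell division genes were late-only and higher in Activin. Of 81 mitosis and chromosome segregation genes, 36 had a higher and 0 a lower effect at 19 hpf, which was 19 and 4 with ribosomal centring, and the median difference was 1.83 (1.12 with ribosomal centring). In all, 26 were late-only and higher, a number that became 4 with ribosomal centring, and 6 reversed from lower to higher (1 to 8 with other scalings). Levels were lower at 19 hpf in both arms, with a median log2 change over time of -4.60 in control and -2.66 in Activin explants. MKI67, the proliferation marker Ki-67, had 1934 scaled counts in control and 1336 in Activin explants at 11 hpf, and 20.9 and 129 at 19 hpf; the groups were close at 11 hpf, and at 19 hpf the Activin level was above the control level (difference 3.15 ± 0.49; Wald test, adjusted p = 1.1e-08). CCNB2, a cyclin of entry into mitosis, and ANLN, a scaffold of the cleavage furrow, reversed, with 2708 scaled counts in control and 1377 in Activin explants at 11 hpf, and 29.6 and 162 at 19 hpf for CCNB2 and a difference of 3.38 ± 0.50 for ANLN. CCNA1, PRC1, CENPK and FOXM1 also reversed, FOXM1 with the largest difference of the list (6.56 ± 1.10) and a control level of 0.570 scaled counts at 19 hpf. CDK1, the mitotic kinase, and PLK1 and CENPF, a mitotic kinase and a kinetochore protein, were late-only, with differences of 1.77 ± 0.54, 1.58 ± 0.56 and 2.66 ± 0.51. CDC27, a subunit of the anaphase-promoting complex, was lower at 11 hpf only (2.0 ± 0.49). KIF20A, a cytokinesis kinesin, was sustained and higher at 1.54 ± 0.34 and 2.31 ± 0.45 in the authors' deposited tables. CDK1 and PLK1 lost their called differences with ribosomal centring.

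DNA replication genes shared the lower levels at 19 hpf but less of the difference. Of 50 such genes, 8 had a higher and 1 a lower effect at 19 hpf (3 and 6 with ribosomal centring), and the median difference was -0.13 (-0.83 with ribosomal centring). A pair of rows for RRM2, the small subunit of ribonucleotide reductase, reversed, one with 3918 scaled counts in control and 1165 in Activin explants at 11 hpf, and 61.7 and 195 at 19 hpf (Wald test, adjusted p = 1.1e-09) and the other with a difference of 2.95 ± 0.50. TOP2A, the topoisomerase that untangles replicated DNA, was late-only with 203 scaled counts in control and 276 in Activin explants at 11 hpf, and 44.1 and 267 at 19 hpf. Of 6 rows for the MCM helicase, 1 had a called difference, MCM7 (1.71 ± 0.53), and the other five had negative differences that did not pass the test. RPA1, which coats single-stranded DNA, was sustained and higher. Germ plasm and piRNA genes, which mark and protect germ cells, had 7 higher and 1 lower of 23 (3 and 1 with ribosomal centring), with a median of 1.32 (0.62 with ribosomal centring). DDX4, the Vasa helicase, was stronger at 19 hpf, with 199 scaled counts in control and 386 in Activin explants at 11 hpf, and 47.9 and 411 at 19 hpf, and TDRD6, a Tudor protein of germ granules, was too (2.29 ± 0.55). PRDM14, a regulator of germ cell specification in mammals, was late-only at 694 scaled counts in control and 471 in Activin explants at 11 hpf, and 19.6 and 108 at 19 hpf. A PIWIL1 row, a piRNA-binding protein, went the other way, lower in Activin at 19 hpf only with 28.1 scaled counts in control and 33.8 in Activin explants at 11 hpf, and 204 and 43.4 at 19 hpf. MCM7 lost its called difference with ribosomal centring.

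**Figure D4:**
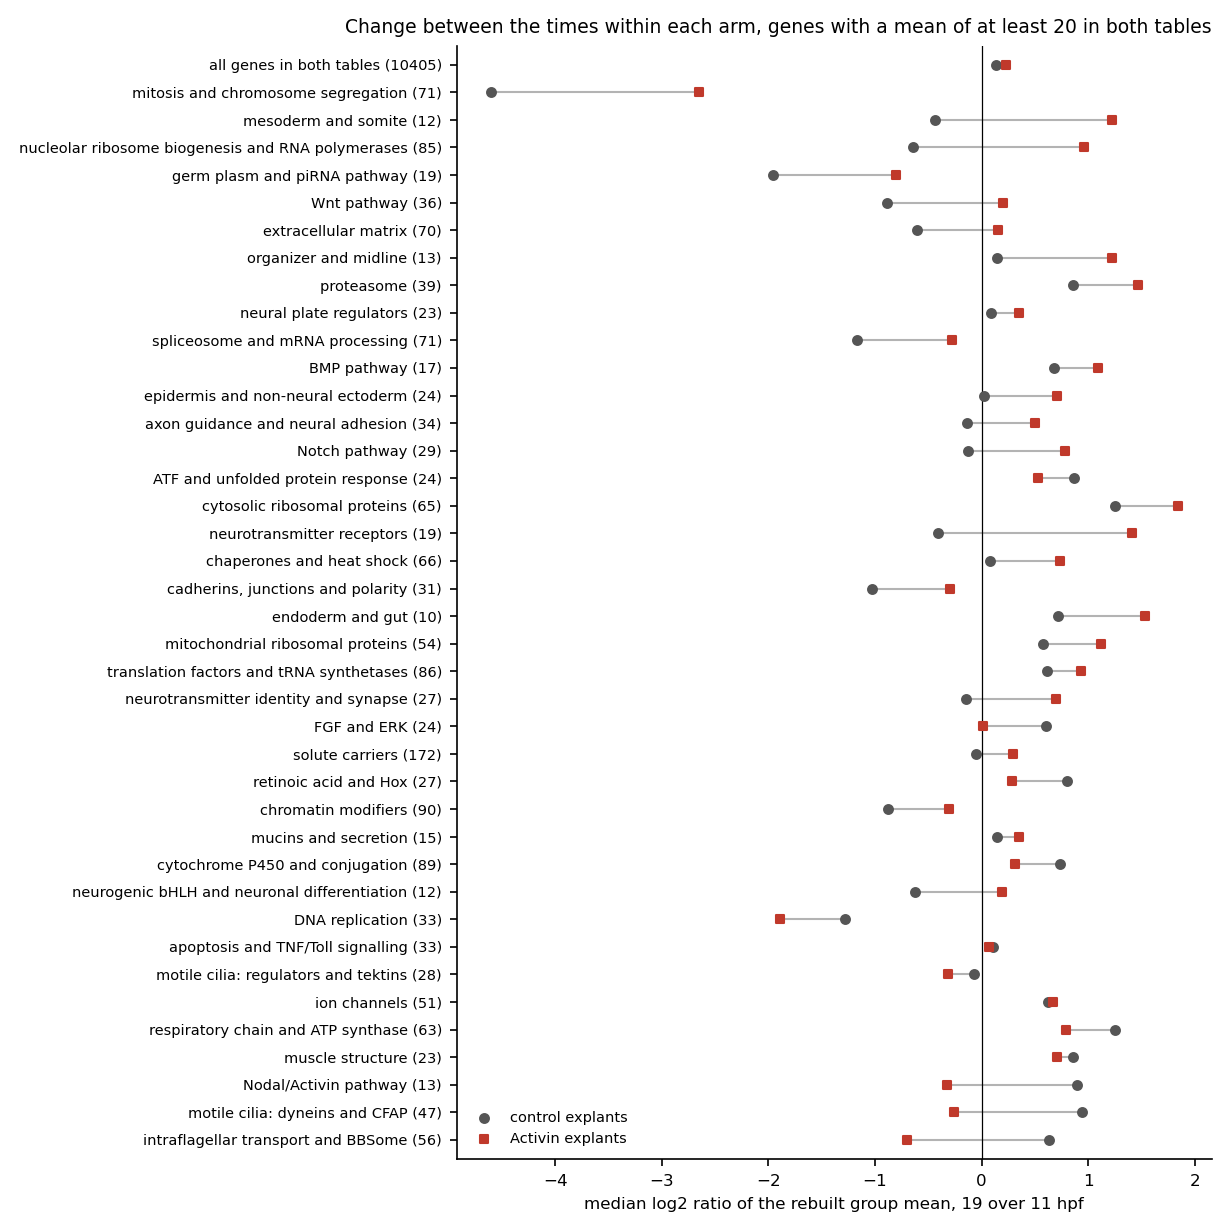
For each function list and for all genes, the grey point is the median log2 ratio of 19 over 11 hpf in control and the red square that in Activin explants, over genes with a mean of at least 20 in both tables (number in brackets); no error is given for these ratios. The mitosis list lies furthest left (-4.60 and -2.66), and the control and Activin points of the IFT list lie on opposite sides of 0 (0.63 and -0.70).

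Genes that make ribosomes were higher in Activin at 19 hpf. Of 102 nucleolar and RNA polymerase genes, 28 had a higher and 0 a lower effect at 19 hpf (16 and 1 with ribosomal centring), 23 of them late-only (11 to 23 with other scalings), and the median difference was 1.76 (1.05 with ribosomal centring). At 19 hpf 88 of the 102 were called higher in Activin, against 23 at 11 hpf, where 21.3% and 13.7% of all genes were. FBL, fibrillarin, which methylates ribosomal RNA, had 265 scaled counts in control and 311 in Activin explants at 11 hpf, and 69.9 and 520.1 at 19 hpf: the control level was lower and the Activin level higher at 19 hpf (difference 2.66 ± 0.48; Wald test, adjusted p = 1.9e-06). PWP2 and TSR1, factors of the small ribosomal subunit, had the same pattern, with differences of 3.83 ± 0.71 and 3.97 ± 0.79. NOP56 and NOP58, partners of fibrillarin, were late-only as well (1.92 ± 0.46 and 1.98 ± 0.51). POLR1A, the catalytic subunit of RNA polymerase I, was stronger (1.83 ± 0.58). MYC, a regulator of ribosome production, was sustained and higher, with effects of 2.27 ± 0.42 at 11 hpf and 1.97 ± 0.38 at 19 hpf in the authors' deposited tables. Of the cytosolic ribosomal protein genes, 7 of 65 had a higher and 0 a lower effect at 19 hpf (0 and 1 with ribosomal centring), 46 were called at 19 hpf only with no called difference (2 to 45 with other scalings), and the median difference was 0.66 (-0.04 with ribosomal centring). Ribosomal centring is set from these same genes, so their small median and few calls with it follow from its construction. RPL10A had 93.2 scaled counts in control and 84.6 in Activin explants at 11 hpf, and 80.6 and 268 at 19 hpf. Mitochondrial ribosomal protein genes had 1 higher and 0 lower of 62 (1 and 2 with ribosomal centring), the one being MRPS30 (3.34 ± 0.74). NOP58, POLR1A and RPL10A lost their called differences with ribosomal centring.

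Translation and splicing genes followed in part. Of 93 translation factor and tRNA synthetase genes, 19 had a higher and 5 a lower effect at 19 hpf (7 and 10 with ribosomal centring), with a median of 0.50 (-0.20 with ribosomal centring). EIF2S3, a subunit of the initiator-tRNA carrier eIF2, was late-only with 64.7 scaled counts in control and 46.1 in Activin explants at 11 hpf, and 13.4 and 69.1 at 19 hpf (Wald test, adjusted p = 3.4e-05). EIF4G2, an initiation scaffold, had 2435 scaled counts in control and 1957 in Activin explants at 11 hpf, and 388 and 1368 at 19 hpf and a difference of 2.13 ± 0.44, and EIF4G3, a relative, was lower at 11 hpf only (2.35 ± 0.46). Of 13 rows for the initiation complex eIF3, 5 had a higher effect. EIF4E3, a cap-binding protein, was higher in Activin at 11 hpf only, with 18.8 scaled counts in control and 114 in Activin explants at 11 hpf, and 128 and 139 at 19 hpf, and GARS, glycyl-tRNA synthetase, was lower at 19 hpf only (-2.02 ± 0.58). Spliceosome and mRNA processing genes had 19 higher and 2 lower of 75 (5 and 3 with ribosomal centring), with a median of 0.82 (0.12 with ribosomal centring). All 9 rows for Sm and snRNP proteins had positive differences, 6 of them called (their median, 1.56, is still positive after the shift of 0.70). SNRPB had 649 scaled counts in control and 543 in Activin explants at 11 hpf, and 122 and 433 at 19 hpf and SNRPF a difference of 2.34 ± 0.50. HNRNPL, an RNA-binding splicing regulator, was lower at 11 hpf only (2.35 ± 0.47). PRPF4B and CPSF2, a splicing kinase and a cleavage factor, were higher at 11 hpf only (-2.19 ± 0.53 and -1.66 ± 0.62).

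Protein folding, degradation and energy genes differed unevenly. Chaperone genes had 15 higher and 3 lower of 69 (9 and 5 with ribosomal centring). The mitochondrial chaperones HSPA9 and HSPE1 had higher effects at 19 hpf, HSPA9 late-only with 425 scaled counts in control and 301 in Activin explants at 11 hpf, and 66.9 and 379 at 19 hpf (Wald test, adjusted p = 3.0e-07) and HSPE1 reversed (2.86 ± 0.57), and HSPD1, the partner of HSPE1, was late-only (1.5 ± 0.47). Chaperones of the endoplasmic reticulum differed in both directions: HSPA5 and HSP90B1 were lower in Activin at 19 hpf only (-1.80 ± 0.58 and -1.98 ± 0.61), and CANX and a DNAJB11 row were higher at 19 hpf only (1.66 ± 0.45 and 2.58 ± 0.53). On the list of ATF factors and the unfolded protein response, 5 had a higher and 6 a lower effect of 28 (0 and 10 with ribosomal centring). ATF4, the transcription factor of the integrated stress response, was higher in Activin at 11 hpf only: its level was 21.4 scaled counts in control and 189 in Activin explants at 11 hpf, and 1318 and 946 at 19 hpf, and the difference was -3.62 ± 0.50 (Wald test, adjusted p = 6.1e-11). PDIA6, a disulfide isomerase, and a pair of rows for EIF2AK3, the stress kinase PERK, were lower at 19 hpf only (-2.59 ± 0.55, -2.27 ± 0.66 and -2.24 ± 0.63). NFE2L2, the oxidative stress factor, was higher at 11 hpf only (-1.91 ± 0.47). ASNS, asparagine synthetase, a target of ATF4 in mammals, was lower at 11 hpf on 3 rows with higher effects at 19 hpf (1.57 to 4.24). Of the proteasome genes, 18 of 41 were sustained and higher, a number that was 3 to 34 with other scalings, and 3 had a called difference (3 and 1 with ribosomal centring). These were PSMD13 (2.20 ± 0.54), PSMA5 (2.57 ± 0.66) and PSME3, an activator of the nuclear proteasome, which reversed with 79.0 scaled counts in control and 37.4 in Activin explants at 11 hpf, and 5.56 and 70.5 at 19 hpf. Few respiratory chain genes differed, with 1 higher and 2 lower of 68; with ribosomal centring these counts were 0 and 16. HSPD1, CANX and the 3 ASNS rows lost their called differences with ribosomal centring.

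Chromatin regulators had called differences at a share near that of all genes. Of 102 genes, 14 had a higher and 6 a lower effect at 19 hpf (6 and 19 with ribosomal centring), 19.6% in all against 16.8% of all genes, with a median of 0.03 (-0.67 with ribosomal centring and -0.09 with total-count scaling). PRMT1, an arginine methyltransferase, had a row that was lower at 11 hpf only, with 5999 scaled counts in control and 251 in Activin explants at 11 hpf, and 203 and 119.7 at 19 hpf, and another that was stronger and higher (2.51 ± 0.47). PRMT8, a relative, was weaker, with 6173 scaled counts in control and 167 in Activin explants at 11 hpf, and 978 and 205 at 19 hpf. Of 6 rows for SMARCA5, the ISWI remodeller, 4 were late-only and higher, with differences of 1.91 to 1.96. HDAC2 and CBX3, a histone deacetylase and a heterochromatin protein, were late-only (1.55 ± 0.45 and 1.93 ± 0.49), while HELLS, ARID1B and INO80, remodeller subunits, were higher at 11 hpf only (-1.61 ± 0.55, -1.45 ± 0.49 and -1.43 ± 0.53). HDAC2 and CBX3 lost their called differences with ribosomal centring.

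Wnt genes tended to higher effects at 19 hpf, FGF genes split, and the called differences of retinoid genes were mostly lower. Of 44 Wnt pathway genes, 15 had a higher and 1 a lower effect (5 and 3 with ribosomal centring), with a median of 1.04 (0.33 with ribosomal centring). Among ligands, WNT1 was late-only and higher (2.48 ± 0.68) and WNT11 was lower at 11 hpf only (2.62 ± 0.78). The receptor gene FZD1 was stronger, with 5.23 scaled counts in control and 16.3 in Activin explants at 11 hpf, and 2.47 and 117 at 19 hpf (Wald test, adjusted p = 4.0e-05), FZD7 was late-only (1.47 ± 0.47), and the co-receptor LRP6 was higher at 11 hpf only (-1.52 ± 0.50). NKD1, an inhibitor that Wnt signalling induces, reversed with 481 scaled counts in control and 181 in Activin explants at 11 hpf, and 67.7 and 187 at 19 hpf. Both rows for GSK3B, the kinase that marks beta-catenin for destruction, were lower at 11 hpf only (1.69 ± 0.45 and 1.76 ± 0.51). On the FGF and ERK list, 5 had a higher and 6 a lower effect of 30 (4 and 9 with ribosomal centring). FGFRL1, an FGF receptor without a kinase, was lower at 11 hpf only, with 495 scaled counts in control and 89.5 in Activin explants at 11 hpf, and 776 and 878 at 19 hpf, and FGFR1 rows were lower at 11 hpf and less so or not called at 19 hpf (2.44 ± 0.51 and 2.36 ± 0.63). DUSP5 and DUSP10, phosphatases of MAP kinases, and BRAF, a kinase above ERK, had lower effects at 19 hpf (-4.99 ± 1.08, -1.84 ± 0.51 and -2.39 ± 0.58). FGFR3 was sustained and lower. Retinoic acid and Hox genes had 1 higher and 7 lower of 32 (0 and 9 with ribosomal centring). Their median difference was 0.04 (-0.66 with ribosomal centring and -0.08 with total-count scaling), and 18 of the 32 differences were positive. CRABP2, which carries retinoic acid in the cell, was stronger, with 357 scaled counts in control and 55.8 in Activin explants at 11 hpf, and 2845 and 52.4 at 19 hpf (Wald test, adjusted p = 1.2e-07). Of 15 retinol dehydrogenase rows, 4 were late-only and lower, RDH12 with 11.0 scaled counts in control and 19.5 in Activin explants at 11 hpf, and 61.3 and 5.27 at 19 hpf, and 1 was late-only and higher. Both RARB rows, a retinoic acid receptor, were higher at 11 hpf only (-2.31 ± 0.69 and -1.41 ± 0.50), and ALDH1A2, the enzyme that makes retinoic acid, was sustained and lower. WNT11, FZD7 and GSK3B lost their called differences with ribosomal centring.

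Extracellular matrix genes differed in both directions. Of 112 extracellular matrix genes, 26 had a higher and 8 a lower effect at 19 hpf (16 and 12 with ribosomal centring), 5 reversed from lower to higher (1 to 5 with other scalings), and the median was 1.04 (0.33 with ribosomal centring). COL4A6, a collagen IV chain of basement membranes, reversed on a row with 67.6 scaled counts in control and 14.1 in Activin explants at 11 hpf, and 281 and 1099 at 19 hpf (Wald test, adjusted p = 8.8e-14); the Activin level was below control at 11 hpf and above it at 19 hpf. Its other called rows had differences of 3.24 ± 0.81 and 3.29 ± 0.57. HSPG2, the basement membrane proteoglycan perlecan, and ITGA6, a laminin receptor subunit, were late-only (3.92 ± 0.78 and 3.80 ± 0.50), ITGA6 with 187 scaled counts in control and 136 in Activin explants at 11 hpf, and 22.2 and 225 at 19 hpf. Laminin rows split: 7 of 26 had a higher and 2 a lower effect, the latter including LAMA5, which was higher at both times and less so at 19 hpf (7.12 scaled counts in control and 70.7 in Activin explants at 11 hpf, and 403 and 740.3 at 19 hpf). THBS1, a thrombospondin, reversed on 1 row (5.15 ± 0.68) and was sustained and lower on another (1.22 ± 0.56). Of 37 cadherin, junction and polarity genes, 8 had a higher and 2 a lower effect (2 and 4 with ribosomal centring), with CDH12, a classical cadherin, late-only at 139 scaled counts in control and 196 in Activin explants at 11 hpf, and 39.4 and 414 at 19 hpf and CRB1, an apical polarity protein, stronger (2.14 ± 0.53). Muscle structure genes had 2 higher and 4 lower of 33 (1 and 6 with ribosomal centring), 18.2% in all against 16.8% of all genes. A row for TTN, titin, was lower in Activin at 19 hpf only, with 4.18 scaled counts in control and 6.66 in Activin explants at 11 hpf, and 2083 and 13.8 at 19 hpf, so that it was low in every group except the control explants at 19 hpf (Wald test, adjusted p = 6.7e-19). CKM, muscle creatine kinase, was higher at 11 hpf only (18.9 scaled counts in control and 185 in Activin explants at 11 hpf, and 43.3 and 30.6 at 19 hpf), and TPM3, a tropomyosin, was stronger on a row with a difference of 2.94 ± 0.48 and sustained and lower on another.

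Metabolic and death genes completed the lists. Solute carriers had 30 higher and 12 lower of 226 (21 and 27 with ribosomal centring), 18.6% in all against 16.8% of all genes, with 66 sustained and lower (48 to 74 with other scalings). A row for SLC22A5, the carnitine transporter, was weaker, with 776 scaled counts in control and 4.66 in Activin explants at 11 hpf, and 286 and 22.6 at 19 hpf, SLC45A2, a transporter of pigment cells, was lower at 11 hpf only (4.24 ± 0.61), and SLC36A4, an amino acid transporter, reversed (4.11 ± 0.67). Cytochrome P450 and conjugation genes had 8 higher and 16 lower of 141 (7 and 23 with ribosomal centring), 17.0% in all against 16.8% of all genes. Of 34 rows named for CYP2U1, a fatty acid hydroxylase in mammals, 6 had a lower and none a higher effect, one with 83.4 scaled counts in control and 15.3 in Activin explants at 11 hpf, and 376 and 2.59 at 19 hpf (Wald test, adjusted p = 1.3e-08), where 16 of the rows had positive differences. GSTZ1, a glutathione transferase, was weaker, with 1745 scaled counts in control and 31.6 in Activin explants at 11 hpf, and 252 and 52.4 at 19 hpf. Among apoptosis and TNF/Toll genes, 5 of 43 had a higher and 1 a lower effect (1 and 11 with ribosomal centring). APAF1, the scaffold of the apoptosome, was lower at both times and less so at 19 hpf on a pair of rows (2.37 ± 0.52 and 2.31 ± 0.75), and NFKB1, a subunit of NF-kappaB, was lower at 19 hpf only (-2.10 ± 0.66). TRAF2, an adaptor of TNF receptors, was sustained and higher at 3.43 ± 0.51 and 4.59 ± 0.38 in the authors' deposited tables. An APAF1 row lost its called difference with ribosomal centring.

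**Figure D5:**
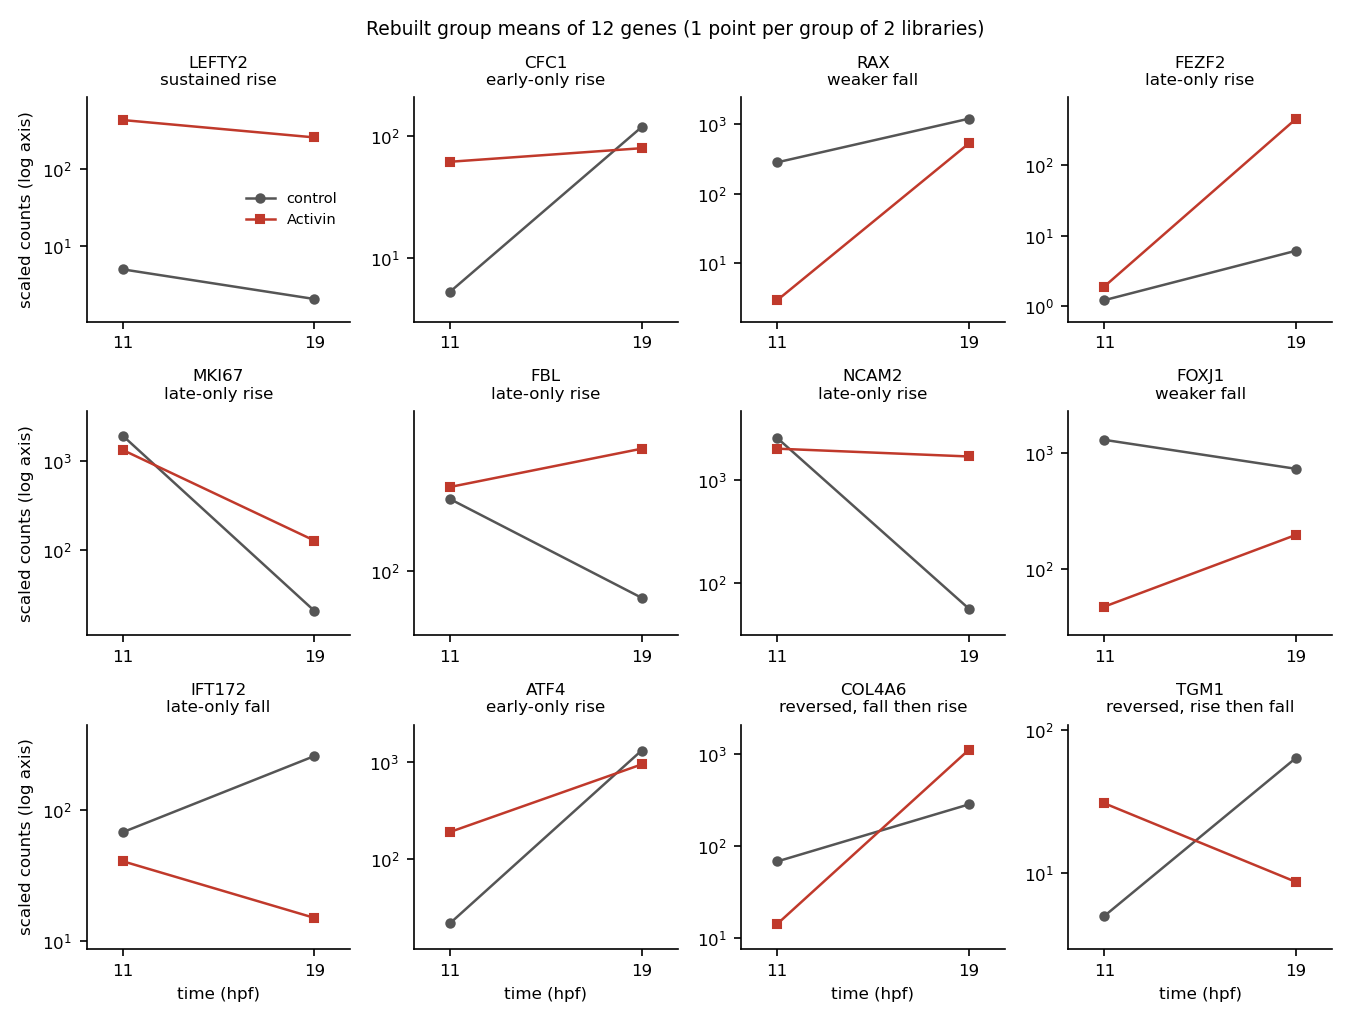
Rebuilt group means of 12 genes, in scaled counts on a log axis, against time (hpf); circles are control and squares Activin explants, 1 point per group of 2 libraries, with no error at this level; rise and fall above a panel mean higher and lower in Activin. The lines of LEFTY2 run side by side, those of MKI67, FBL and NCAM2 stand further apart at 19 hpf, those of RAX and FOXJ1 close up, and those of CFC1, ATF4, COL4A6 and TGM1 cross.

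The largest differences of each class, among genes with a symbol and a mean of at least 20 in both tables, lay partly outside the lists. Late-only and higher were PTPRT, a receptor phosphatase with a control mean under 3 normalized counts at 19 hpf (7.19 ± 1.76), CES1, a carboxylesterase (6.57 ± 1.37), and PID1 (3.23 scaled counts in control and 2.47 in Activin explants at 11 hpf, and 0.861 and 60.1 at 19 hpf). Late-only and lower, besides TTN, were ACSF2, an acyl-CoA synthetase (3.35 scaled counts in control and 4.51 in Activin explants at 11 hpf, and 191 and 1.51 at 19 hpf), and a pair of the several rows for PXDN, a matrix peroxidase. One of these went from 13.9 to 6548 scaled counts in control and from 5.53 to 25.7 in Activin explants (difference -6.66 ± 0.79). Early-only and higher were REST, a repressor of neuronal genes in non-neural cells (4.98 scaled counts in control and 108 in Activin explants at 11 hpf, and 41.6 and 28.3 at 19 hpf; difference -4.99 ± 0.62), IGFALS (-5.86 ± 1.58), FBXO32 (-4.77 ± 1.22) and NT5E, an ectonucleotidase (-4.16 ± 0.85). Early-only and lower were TMEM22 (6.14 ± 0.93), WFIKKN2, a secreted protein that binds TGF-beta family ligands in mammals (394 scaled counts in control and 20.9 in Activin explants at 11 hpf, and 1.37 and 4.86 at 19 hpf), TYRP1, an enzyme of melanin synthesis (1434 scaled counts in control and 56.7 in Activin explants at 11 hpf, and 58.4 and 94.3 at 19 hpf), FHDC1 and C2orf16. Stronger and higher were FZD1, RGL1 (3.63 ± 0.75), ZFP112 (3.39 ± 0.59) and LRRK1 (3.18 ± 0.71), and stronger and lower were TRIM36, a ubiquitin ligase (23.0 scaled counts in control and 9.35 in Activin explants at 11 hpf, and 539 and 5.67 at 19 hpf), TUBA1C, an alpha-tubulin (9.45 scaled counts in control and 2.49 in Activin explants at 11 hpf, and 517 and 6.0 at 19 hpf), MATN2 and a row for EIF5A (-3.83 ± 0.84). Weaker and higher, besides SKI and RIPPLY2, was TLK1, a chromatin kinase (-3.06 ± 0.53), and weaker and lower, besides RAX, were ANKRD9 (5.21 ± 0.70), SYNE1, a nuclear envelope protein (4.31 ± 0.67), and FA2H, a lipid hydroxylase (443 scaled counts in control and 11.2 in Activin explants at 11 hpf, and 51.3 and 23.3 at 19 hpf).

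Precision set what could be seen. The median SE of a difference was 1.91 for genes with the lower of their means under 20, 1.04 from 20 to 100, 0.606 from 100 to 1000 and 0.477 from 1000, so that the 95% interval spanned a median of 13.4-fold, 4.09-fold, 2.28-fold and 1.91-fold to either side, and 3.81%, 12.6%, 25.4% and 31.2% of genes were called. For a gene of median precision in its range, a difference smaller than the span did not pass the test. The adjustment over all genes required a difference larger than the span. Of the 2265 genes only in the 11 hpf table and the 3205 only in the 19 hpf table no difference could be formed. Counts for lists rich in symbols on several rows rest on those rows: among symbols on 1 row only, the matrix list had 7 higher effects, the retinoic acid and Hox list 0 lower and the cytochrome P450 list 1 lower. Symbols on several rows may be near-identical copies, and how shared reads were counted is not given in the sources used here.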

How the data were processed

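Polyadenylated RNA of 8 libraries was measured, 2 in each of 4 groups, and the values of each time stood in 1 table of 15793 genes (11 hpf) or 16733 genes (19 hpf). HISAT2, featureCounts and edgeR are named in the submitters' processing notes; versions, build, annotation and strand setting are not given in the sources used here. Per the file headers, whose names are those of a DESeq2 results table, the authors deposited for each gene a mean normalized signal, a log2 fold change between treatments and its standard error on the log2 scale, a Wald score and a raw and an adjusted p-value. In every row the score equalled the fold change over its error and the adjusted p-value equalled a Benjamini-Hochberg adjustment. The tables hold no value per library, so depth per library is unknown; the means summed to about 9146020 and 10891500 normalized counts.

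Differences of effects were tested with a two-sided Wald test over all 13528 shared genes (Python 3.11.15, numpy 2.4.6, pandas 2.3.3, scipy 1.17.1) and adjusted by the Benjamini-Hochberg method at 0.05. On simulated data for these 13528 genes, the test called 0% of 50 genes changed by 1, 8% by 2, 44% by 3 and 70% by 4 on the log2 scale, with 4 calls among 13328 genes not changed. The simulation changed far fewer genes than were called in the data, so its adjusted threshold was stricter and these shares may be too low. Its noise was drawn from the authors' errors, so the calls among genes not changed do not test those errors. Group means were rebuilt from mean and fold change with equal weight on both groups; 3 normalized counts correspond to 0.328 scaled counts at 11 hpf and 0.275 at 19 hpf.

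Genes and 39 function lists were chosen with earlier results of these data known. Genes were named by rule: the 5 largest differences per changing class with a symbol and a mean of at least 20 in both tables, in each list the 3 members with a called difference and the largest Wald statistics and the 1 clearest sustained member, and LEFTY2, CHRD, GSC, NODAL (in neither table), T, SOX2, NEUROG3, KRT8, FOXJ1 and MKI67. Other list members and the families of related rows were named after their values were seen, and the values of 1 gene that the rule names are not reported here. Alternatives covered scaling, thresholds, adjustment, low means and larger errors. Lists were not tested as sets.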

Additional observations from a re-analysis of the deposited data

Results flagged for a closer look

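Genes named by the rule that were called at both times in opposite directions are given here. The difference of effects was tested (Wald test, adjusted p below 0.05 for each), but the opposite signs were not. They rest on the calls at each time and depend on the scaling. Total-count scaling takes -0.98 from each effect at 11 hpf, where CCNB2 stood at -0.98 and ANLN at -0.90 in the authors' deposited tables. Genes lower in Activin at 11 hpf and higher at 19 hpf had positive differences. Among them, APOB, the main protein of lipoprotein particles, had a difference of 10.47 ± 1.65, with levels of 9.82 scaled counts in control and 0.0971 in Activin explants at 11 hpf, and 0.439 and 6.15 at 19 hpf. SMOC2 had one of 8.75 ± 1.54, IGF2, a growth factor, one of 8.65 ± 1.13, and C6orf186 one of 8.14 ± 1.13. ZNF436, a zinc finger gene, differed by 7.40 ± 1.46 and KREMEN1, a receptor for Dickkopf proteins, by 6.91 ± 1.10, with levels of 995 scaled counts in control and 45.9 in Activin explants at 11 hpf, and 1.27 and 7.05 at 19 hpf for the latter. THBS1 differed by 5.15 ± 0.68, PSME3 by 4.74 ± 0.60, HSPBP1, a co-chaperone, by 4.61 ± 0.73, and IRX6 by 4.48 ± 0.51. COL4A6 differed by 4.22 ± 0.51 and SLC36A4 by 4.11 ± 0.67. For cell division and replication genes the differences were 3.42 ± 0.48 for CCNB2, 3.41 ± 0.50 and 2.95 ± 0.50 for a pair of RRM2 rows, and 3.38 ± 0.50 for ANLN. DKK2 differed by 3.37 ± 0.64, NKD1 by 2.88 ± 0.50 and HSPE1 by 2.86 ± 0.57. APOB, SMOC2, IGF2, C6orf186 and ZNF436 rest on low levels in at least 1 group, with levels of 4.88 scaled counts in control and 0.607 in Activin explants at 11 hpf, and 1.62 and 80.7 at 19 hpf for IGF2.

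Genes higher in Activin at 11 hpf and lower at 19 hpf had negative differences. CES3, a carboxylesterase, had a difference of -8.72 ± 1.90, with 0.452 scaled counts in control and 4.73 in Activin explants at 11 hpf, and 3.80 and 0.0943 at 19 hpf, and C20orf194 one of -7.89 ± 0.69. CES3 rests on low levels, in Activin at 19 hpf under 3 normalized counts. KLHL20, an adaptor of a ubiquitin ligase, differed by -6.01 ± 1.03, with 6.22 scaled counts in control and 24.4 in Activin explants at 11 hpf, and 17.3 and 1.06 at 19 hpf. NRL, a leucine zipper factor, differed by -5.56 ± 0.76, GPR137B by -5.52 ± 0.89, TGM1 by -5.52 ± 0.76, BBS7 by -5.29 ± 0.70 and GALNT2 by -2.06 ± 0.48.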

How the results depend on the processing

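Of the 555 genes whose differences were recomputed, none with a called difference changed direction under any scaling, threshold, adjustment or filter tried. This was fixed in advance for differences called in the main analysis. Thresholds, adjustments and filters do not alter a difference, and the largest shift by a scaling, 0.70, was below the smallest called difference, 1.19. Called differences were lost for 163 with ribosomal centring, 9 with centring on well measured genes, 43 with total-count scaling, 18 with upper-quartile scaling, 181 at an adjusted p below 0.01 and 224 with Benjamini-Yekutieli adjustment, and 4 were gained with ribosomal centring. Ribosomal centring gave 662 higher and 2099 lower differences, 476 stronger and 194 weaker genes, and 15 lists with a positive median instead of 28. At an adjusted p below 0.01, 1321 differences were called (820 higher, 501 lower), with 595 late-only, 348 early-only, 90 stronger, 170 weaker and 75 reversed genes. Benjamini-Yekutieli adjustment called 1103 (682 higher, 421 lower), with 520 late-only, 289 early-only, 68 stronger, 130 weaker and 44 reversed genes. With standard errors multiplied by 1.5, 428 were called (290 higher, 138 lower). Calls at each time at an adjusted p below 0.01 left 75 reversed genes. The share of lower calls was 39.9% as reported, 36.5% when centred on well measured genes, 46.5% with total-count scaling and 33.9% with upper-quartile scaling. Filters on low group means and restriction to symbols on 1 row were added after seeing the data. The filters kept each count over all genes within 1.5 times the reported one. With symbols on 1 row only, 26 lists had a positive median instead of 28, and the lists held fewer genes: higher effects went from 26 to 7 for the extracellular matrix, 11 to 3 for transmitters and synapse, 7 to 2 for Notch, 5 to 0 for receptors, 10 to 5 for epidermis, 14 to 6 for chromatin and 30 to 8 for solute carriers, and lower effects from 7 to 0 for retinoic acid and Hox, 16 to 1 for cytochrome P450, 13 to 5 for dyneins and 8 to 1 for the matrix. No paired analysis was possible because the tables hold no value per library; for the same reason results without each replicate were not run.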

Other observations

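Genes in only 1 table have no difference of effects, and their values at that time are given from the authors' deposited tables. Of 3205 genes only in the 19 hpf table, 241 were called higher and 861 lower in Activin explants. TECTA, a matrix protein of the inner ear in mammals, was higher with a log2 fold change of 7.42 ± 0.37, and so were the neural genes EN2, a homeobox gene of the midbrain-hindbrain region (5.87 ± 0.53), NHLH1, a neuronal bHLH factor (4.86 ± 0.49), CELF3, an RNA-binding protein of neurons (5.52 ± 0.51), and ST8SIA2, which adds polysialic acid to NCAM (6.05 ± 0.49). PCDH18, a protocadherin, had 5.19 ± 0.38. Lower were OVCH1 (-8.86 ± 0.55), a pair of rows for VIM, an intermediate filament protein (-5.85 ± 0.40 and -6.71 ± 0.46), a row for SLC17A6, the vesicular glutamate transporter (-6.83 ± 0.47), and SLC16A9 (-6.20 ± 0.40). Of 2265 genes only in the 11 hpf table, 44 were called higher and 481 lower. TRPC5, a cation channel, was lower at -5.45 ± 0.58 and ADAMTS19, a matrix protease, at -6.90 ± 0.81. These lists were picked by size of the Wald statistic among genes with a symbol, after the tables were seen.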
